A study of Mus musculus with 8 samples.

Results

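The mitosis and kinetochore genes described here were 45 genes listed by symbol for their roles in cell division, out of 23284 genes counted in RNA sequencing libraries of mouse preSC cells. All 45 were found in the counts, and all 45 passed the filter on low counts that left 13358 genes for testing. They were ordered by what their proteins do: the spindle checkpoint (5 genes), mitotic entry and its kinases (11), the centromere and kinetochore (10), the chromosomal passenger complex (4), spindle assembly and cytokinesis (5), chromosome structure (6) and the onset of anaphase (4).

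There were 4 MaxKO libraries, from preSC populations given a guide RNA against Max, and 4 Ctrl libraries, from populations given a control guide. Cells of both groups derived from mice that carried Chga-GFP, a fluorescent reporter of a neuroendocrine gene, with the alleles Rblox/lox, p53lox/lox and p130lox, on a 129/SvJ; C57BL/6 background. The preSC line of cells models a precancerous stage of neuroendocrine lung tumours in culture. The populations were polyclonal, selected with puromycin and expanded with no further treatment, so that cells with an intact Max allele may remain in a MaxKO population. No label states whether replicates came from separate cultures, so each p-value reflects the spread among these 8 libraries alone, and that spread could be technical.

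In MaxKO libraries 14952291 to 19480947 reads were counted in genes, against 13711278 to 19804949 in Ctrl libraries, and 1 read was worth 0.0522 to 0.0678 CPM (normalised counts, scaled by library size) in MaxKO and 0.0503 to 0.0732 in Ctrl. The lowest count of any of the 45 genes in any library was 388 reads. Max mRNA had 42.3, 42.3, 59.1 and 68.0 CPM in MaxKO libraries 1 to 4, against 65.5, 70.2, 75.2 and 61.9 CPM in Ctrl libraries 1 to 4. Its log2 fold change was -0.37 (SE 0.15, edgeR adjusted p = 0.0955), and the groups overlapped through MaxKO 4. Without MaxKO 4 the log2 fold change was -0.52 (edgeR adjusted p = 0.0228). MaxKO 4 had the most Max of the MaxKO libraries, so leaving it out must deepen the fall. Without MaxKO 1 the log2 fold change was -0.28 (edgeR adjusted p = 0.234), and without MaxKO 2 it was -0.27 (edgeR adjusted p = 0.250). In no other fit with a library left out was the adjusted p under 0.05. Where the guide cuts is not given in the labels, and a transcript can persist after a cut in its coding sequence. The level of Max mRNA is therefore a partial check of the labels. The 8 neuroendocrine marker genes summed to 6260 to 7030 CPM in MaxKO and 5610 to 7740 CPM in Ctrl, while the summed markers of haematopoietic cells stayed at 0.0669 to 0.38 CPM in MaxKO and 0.348 to 0.73 CPM in Ctrl. Markers of endothelium summed to 0.873 to 1.20 CPM in MaxKO and 1.04 to 2.12 CPM in Ctrl, and those of other lung epithelium to 6.23 to 8.49 CPM in MaxKO and 8.58 to 9.73 CPM in Ctrl.

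At the start of mitosis CDK1 bound to cyclin B drives chromosome condensation and nuclear envelope breakdown, and the kinetochore, a protein assembly built on centromeric chromatin that holds CENP-A, captures the spindle microtubules. The spindle checkpoint holds the anaphase-promoting complex inactive until every kinetochore is attached, after which separase cuts cohesin and the sister chromatids part. Transcripts of these genes accumulate in the G2 and M phases under the control of FOXM1, the B-MYB and MuvB complex and, through the DREAM complex, of RB-family proteins, so that in bulk RNA their level also follows the share of cells that are dividing. MAX is the partner with which MYC proteins bind the E-box CACGTG.

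The mitosis and kinetochore genes differed little between MaxKO and Ctrl cells. Cenpl and Espl1 were higher in MaxKO, Smc4 was lower, and the other 42 did not pass edgeR's quasi-likelihood test at a Benjamini-Hochberg adjusted p of 0.05 over all tested genes. The 3 called genes were 6.67% of the 45, beside 23.1% of all tested genes (3084 of 13358). Rises made up 10.9% and falls 12.2% of the tested genes. Among the 7445 tested genes within the abundance range of the 45, 19.8% were called. By edgeR 7 of the 45 had an unadjusted p under 0.05, beside 4739 of the 13358 tested genes. The edgeR counts at that level given below for single roles are parts of these 7. In bulk libraries, fewer cells of a type and less RNA per cell cannot be told apart.

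The differences were also small in size. The log2 fold changes of the 45 genes lay between -0.38 and 0.46 with a median of 0.04, beside a median of -0.00 over all tested genes, and 30 of the 45 were positive and 15 negative. The sign counts depended on the scaling and on single libraries: 21 were positive and 24 negative under upper-quartile scaling (median -0.0020), 23 and 22 with plain library totals (median 0.01), and 21 and 24 without MaxKO 4 (median -0.02). With each library left out in turn, 21 (without MaxKO 4) to 37 (without Ctrl 1) were positive. Against Ctrl 1 and 2 alone 18 were positive and 27 negative (median -0.05), and against Ctrl 3 and 4 alone 40 and 5 (median 0.17). These pairs of controls, described below, follow a difference seen in these same genes. The median absolute log2 fold change of the 45 was 0.07, against 0.18 over all tested genes and 0.13 over the genes in the same abundance range. None of the 45 reached a 2-fold difference, which 723 of the tested genes did. For 40 of the 45 the 95% interval of the log2 fold change lay within 0.5 of 0, and the exceptions were Ccnb1, Nek2, Cenpf, Pttg1 and Smc4. A p above the threshold does not show that the groups are alike.

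**Figure D1:**
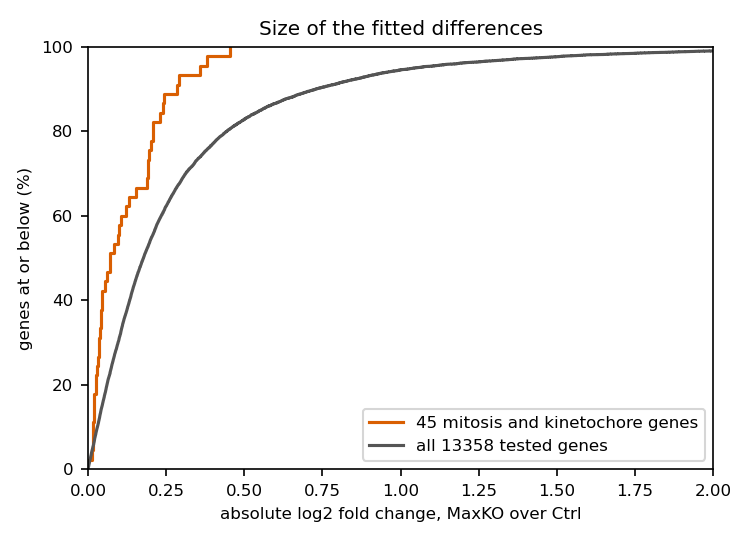
Cumulative share of genes (vertical axis, %) at or below an absolute log2 fold change between MaxKO and Ctrl (horizontal axis), for the 45 mitosis and kinetochore genes and for all 13358 tested genes. The curve of the 45 genes reaches 100% below 0.5, with a median of 0.07 against 0.18 for all genes.

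Cenpl encodes a subunit of the constitutive centromere network that sits on CENP-A chromatin. It had 50.1, 45.6, 47.6 and 48.4 CPM in MaxKO libraries 1 to 4, against 43.0, 39.6, 35.2 and 38.6 CPM in Ctrl libraries 1 to 4. Every MaxKO library was above every Ctrl library. Cenpl averaged 47.9 ± 1.88 CPM in MaxKO and 39.1 ± 3.20 CPM in Ctrl (SD, n = 4 each), a log2 fold change of 0.29 (SE 0.08, edgeR adjusted p = 0.0207). When each library was left out in turn the log2 fold change stayed between 0.25 and 0.34, and the call was lost in 4 of 8 fits, those without MaxKO 1, MaxKO 3, MaxKO 4 or Ctrl 2, with adjusted p-values up to 0.0770.

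Espl1 encodes separase, the protease that cuts cohesin at anaphase. It had 129, 139, 120.1 and 159.7 CPM in MaxKO libraries 1 to 4, against 122, 108, 105 and 115 CPM in Ctrl libraries 1 to 4. The groups overlapped, since MaxKO 3 lay just under Ctrl 1. Espl1 averaged 137 ± 17.0 CPM in MaxKO and 112 ± 7.54 CPM in Ctrl (SD, n = 4 each), a log2 fold change of 0.28 (SE 0.09, edgeR adjusted p = 0.0455). The call was lost in 6 of the 8 fits with a library left out, those without MaxKO 1, MaxKO 2, MaxKO 4, Ctrl 2, Ctrl 3 or Ctrl 4, with log2 fold changes of 0.20 to 0.33 and adjusted p-values up to 0.130.

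Smc4 encodes a core ATPase of both condensin complexes, which compact mitotic chromosomes. It had 665, 565, 609 and 613 CPM in MaxKO libraries 1 to 4, against 919, 865, 716 and 690.0 CPM in Ctrl libraries 1 to 4. Every MaxKO library was below every Ctrl library. Smc4 averaged 613 ± 41.2 CPM in MaxKO and 798 ± 112 CPM in Ctrl (SD, n = 4 each), a log2 fold change of -0.38 (SE 0.11, edgeR adjusted p = 0.0218). The call was lost in 5 of the 8 fits with a library left out, those without MaxKO 2, MaxKO 3, MaxKO 4, Ctrl 1 or Ctrl 2, with log2 fold changes of -0.44 to -0.31 and adjusted p-values up to 0.0819. Smc2, which encodes the ATPase that pairs with SMC4, had 353, 304, 321 and 290.0 CPM in MaxKO libraries 1 to 4, against 417, 393, 322 and 334 CPM in Ctrl libraries 1 to 4. Its groups overlapped through MaxKO 1, and its log2 fold change was -0.21 (SE 0.10, edgeR adjusted p = 0.161).

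Groups that did not overlap were found for 4 of the 45 genes (8.89%), beside 26.4% of all tested genes. Cenpl, Nuf2 and Nusap1 lay above all Ctrl libraries in every MaxKO library, beside 13.4% of all tested genes, and Smc4 lay below, beside 13.1%.

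**Figure D2:**
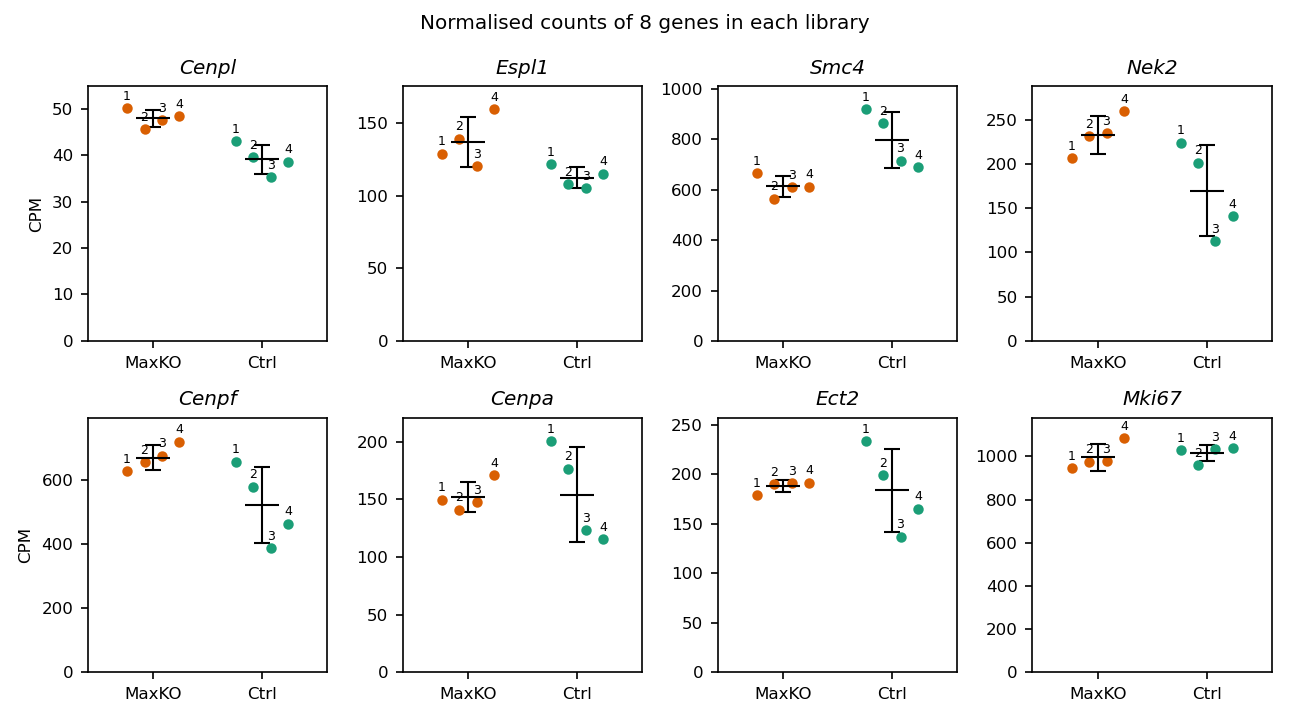
Normalised counts (CPM, vertical axes from 0) of 8 mitosis and kinetochore genes in the 4 MaxKO and 4 Ctrl libraries. Numbered points are libraries and bars are the mean ± SD. Cenpl and Smc4 do not overlap between the groups, and in Nek2, Cenpf, Cenpa and Ect2 Ctrl 1 and 2 lie apart from Ctrl 3 and 4.

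The stretches before the start sites show which of the 45 genes carry the letters that MAX and the mitotic regulators are known to bind. Promoters were found in RefSeq's table of the GRCm38.p6 assembly for 37 of the 45 genes, and none was used for Ccna2, Cdc25c, Foxm1, Spc24, Aurkb, Incenp, Tpx2 and Smc4. In the window of 250 bases before to 50 bases after each start, searched on both strands, the E-box CACGTG was in 3 of 37 (8.11%), those of Anln, Espl1 and Ttk, beside 8.09% of 27025 genes. The letters TTTGAA, the core of the cell cycle homology region bound by the MuvB complex, were in 24 (64.9%), beside 20.2% of all genes. CCAAT, the box bound by NF-Y, was in 29 (78.4%), beside 41.1% of all genes, and 22 promoters (59.5%) held both, beside 7.97% of all genes. None of the 3 motifs contains another. These are matches of letters, and binding was not measured here.

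The 150 bases before the start of the 2 genes that were higher, of the other 2 that hold the E-box and of Nek2 and Cenpf, the uncalled genes with the largest log2 fold changes, are printed on the strand of the gene, with the 3 motifs in capitals on either strand (ATTGG is CCAAT read on the other strand). The stretch of Espl1 is chr15:102296143-102296292 on the plus strand, Cenpl is chr1:161070617-161070766 on the plus strand, Anln is chr9:22389207-22389356 on the minus strand, Ttk is chr9:83834539-83834688 on the plus strand, Cenpf is chr1:189688087-189688236 on the minus strand and Nek2 is chr1:191821323-191821472 on the plus strand, all in GRCm38.p6.
Espl1: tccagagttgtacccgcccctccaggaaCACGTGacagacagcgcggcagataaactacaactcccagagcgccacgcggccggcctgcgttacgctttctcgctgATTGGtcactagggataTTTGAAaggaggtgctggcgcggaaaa
Cenpl: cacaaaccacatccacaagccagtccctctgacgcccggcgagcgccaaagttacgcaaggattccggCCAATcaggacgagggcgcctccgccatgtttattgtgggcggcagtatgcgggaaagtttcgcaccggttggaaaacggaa
Anln: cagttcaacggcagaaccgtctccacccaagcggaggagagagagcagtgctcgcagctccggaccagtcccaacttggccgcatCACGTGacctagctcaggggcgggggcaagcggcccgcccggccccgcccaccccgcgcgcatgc
Ttk: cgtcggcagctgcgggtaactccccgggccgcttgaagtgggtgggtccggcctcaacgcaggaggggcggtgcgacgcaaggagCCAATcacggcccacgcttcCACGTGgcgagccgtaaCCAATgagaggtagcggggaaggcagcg
Cenpf: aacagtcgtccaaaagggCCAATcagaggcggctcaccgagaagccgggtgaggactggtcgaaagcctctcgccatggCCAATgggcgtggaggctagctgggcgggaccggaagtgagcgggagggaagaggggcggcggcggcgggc
Nek2: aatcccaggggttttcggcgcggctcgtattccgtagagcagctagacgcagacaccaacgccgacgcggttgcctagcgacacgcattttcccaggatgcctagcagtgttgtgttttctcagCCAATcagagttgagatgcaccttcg

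Of these 6 stretches, that of Espl1 holds all 3 motifs, with the first base of CACGTG 122 bases before the start. The searched window of Ttk holds all 3 as well, since its TTTGAA begins at base 8 after the start, beyond the printed stretch. In Anln the E-box starts 65 bases before the start of the gene and in Ttk 45 bases before it. Espl1 was higher in MaxKO, while Anln and Ttk were not called, at log2 fold changes of -0.04 (SE 0.13, edgeR adjusted p = 0.848) and -0.02 (SE 0.09, edgeR adjusted p = 0.924).

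None of the 5 genes of the spindle checkpoint passed edgeR's test, and none had an unadjusted p under 0.05 by edgeR, DESeq2 or limma-voom. Their median log2 fold change was -0.02. Bub1b encodes BUBR1, a part of the inhibitor of the anaphase-promoting complex, and had 163, 167, 165 and 182 CPM in MaxKO libraries 1 to 4, against 166, 156, 143 and 144 CPM in Ctrl libraries 1 to 4. The groups overlapped through Ctrl 1, and the log2 fold change was 0.15 (SE 0.07, edgeR adjusted p = 0.164). Mad2l1 encodes MAD2, which binds CDC20, and had 115, 118, 122 and 119 CPM in MaxKO libraries 1 to 4, against 122, 108, 85.9 and 96.2 CPM in Ctrl libraries 1 to 4. Ctrl 1 was level with the highest MaxKO library and Ctrl 3 and 4 were the lowest, and the log2 fold change was 0.19 (SE 0.10, edgeR adjusted p = 0.183). The kinase gene Bub1 averaged 102 ± 3.42 CPM in MaxKO and 111 ± 16.9 CPM in Ctrl, Ttk, which encodes the checkpoint kinase MPS1, averaged 78.1 ± 3.48 CPM in MaxKO and 78.9 ± 9.73 CPM in Ctrl, and Bub3, which brings BUB1 and BUBR1 to the kinetochore, averaged 302 ± 13.7 CPM in MaxKO and 306 ± 25.6 CPM in Ctrl (SD, n = 4 each).

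None of the 11 genes of mitotic entry and its kinases passed edgeR's test or limma-voom, 1 had an unadjusted p under 0.05 by edgeR, and DESeq2, which called 25.7% of all genes, called 1, Nek2. Limma-voom called 22.9% of all genes. Their median log2 fold change was 0.07. Nek2 encodes a kinase that parts the centrosomes and had 207, 232, 235 and 259.5 CPM in MaxKO libraries 1 to 4, against 224, 201, 112 and 141 CPM in Ctrl libraries 1 to 4. Ctrl 1 and 2 lay close to the MaxKO libraries, and Ctrl 3 and 4 were far below. Nek2 averaged 233 ± 21.6 CPM in MaxKO and 169.8 ± 51.8 CPM in Ctrl, with a log2 fold change of 0.46 and the widest interval of the 45 genes, 0.05 to 0.87 (SE 0.19, edgeR adjusted p = 0.105). Ccnb1, the gene of cyclin B1, had 262, 286, 304 and 341 CPM in MaxKO libraries 1 to 4, against 326, 289, 179.8 and 213 CPM in Ctrl libraries 1 to 4. Ctrl 1 and 2 lay inside the MaxKO range and Ctrl 3 and 4 below it, and the log2 fold change was 0.24 (SE 0.17, edgeR adjusted p = 0.337).

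Cdk1 averaged 269.6 ± 17.1 CPM in MaxKO and 251 ± 22.9 CPM in Ctrl, a log2 fold change of 0.10 with a 95% interval of -0.08 to 0.29. The genes of cyclin B2 (Ccnb2) and cyclin A2 (Ccna2) had log2 fold changes of 0.13 and -0.03, and those of the CDK1-activating phosphatases, Cdc25b and Cdc25c, had -0.05 and -0.04. Among the kinases, Plk1, which acts at centrosomes and kinetochores, had 0.07, Aurka, which builds the spindle poles, had 0.01, and Plk4, which starts centriole duplication, had -0.08. Foxm1, which encodes a transcription factor for many of these genes, averaged 136 ± 14.4 CPM in MaxKO and 127 ± 9.12 CPM in Ctrl, a log2 fold change of 0.10 (SE 0.09, edgeR adjusted p = 0.470).

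Of the 10 genes of the centromere and kinetochore, Cenpl rose, 3 had an unadjusted p under 0.05 and the median log2 fold change was 0.08. Cenpf encodes a large protein of the outer kinetochore and had 627, 656, 676 and 719.6 CPM in MaxKO libraries 1 to 4, against 658, 579, 389 and 464 CPM in Ctrl libraries 1 to 4. Ctrl 1 lay inside the MaxKO range and Ctrl 3 and 4 were far below it. Cenpf averaged 669.6 ± 38.7 CPM in MaxKO and 522 ± 119 CPM in Ctrl, a log2 fold change of 0.36 (SE 0.14, edgeR adjusted p = 0.0895), and DESeq2 called it. Nuf2 encodes a microtubule-binding subunit of the NDC80 complex and had 147, 139, 141 and 151 CPM in MaxKO libraries 1 to 4, against 135, 138, 118 and 115 CPM in Ctrl libraries 1 to 4. Its groups did not overlap, with MaxKO 2 just above Ctrl 2, and its log2 fold change was 0.19 (SE 0.08, edgeR adjusted p = 0.0968).

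The other subunits of the NDC80 complex stood closer to 0, with log2 fold changes of 0.02 for Ndc80, 0.00 for Spc24 and -0.03 for Spc25. Cenph averaged 30.9 ± 2.58 CPM in MaxKO and 27.1 ± 3.57 CPM in Ctrl, a log2 fold change of 0.19 (SE 0.11, edgeR adjusted p = 0.223), and Cenpk, which also belongs to the constitutive centromere network, had 0.06. Cenpe, the gene of a kinetochore motor, had 0.10. Cenpa, which encodes the centromeric histone, had 149.5, 141, 147 and 171 CPM in MaxKO libraries 1 to 4, against 200.1, 176, 123 and 115 CPM in Ctrl libraries 1 to 4. All 4 MaxKO libraries lay between Ctrl 1 and 2 above and Ctrl 3 and 4 below, and the log2 fold change was -0.02 (SE 0.16, edgeR adjusted p = 0.959).

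None of the 4 genes of the chromosomal passenger complex, which corrects faulty attachments and guides cytokinesis, passed edgeR's test. None had an unadjusted p under 0.05 by edgeR or limma-voom, and 2 did by DESeq2. The median log2 fold change was 0.13. Aurkb, the gene of its kinase, had 175, 168, 160.5 and 208 CPM in MaxKO libraries 1 to 4, against 153, 156, 147 and 168 CPM in Ctrl libraries 1 to 4. The groups overlapped through MaxKO 3 and Ctrl 4, and the log2 fold change was 0.19 (SE 0.09, edgeR adjusted p = 0.151). Birc5, which encodes survivin, had 212, 179.7, 191 and 218 CPM in MaxKO libraries 1 to 4, against 168, 162, 204 and 162 CPM in Ctrl libraries 1 to 4. Ctrl 3 lay inside the MaxKO range and the other 3 controls below it, and the log2 fold change was 0.20 (SE 0.10, edgeR adjusted p = 0.151). The scaffold gene Incenp and the gene of borealin, Cdca8, had log2 fold changes of 0.07 and -0.03.

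Of the 5 genes of spindle assembly and cytokinesis, none passed edgeR's test, DESeq2 or limma-voom, 1 had an unadjusted p under 0.05 in each, and the median log2 fold change was 0.03. Nusap1 encodes a protein that binds spindle microtubules near chromosomes and had 222, 220.5, 227 and 223 CPM in MaxKO libraries 1 to 4, against 218, 194, 171 and 189.9 CPM in Ctrl libraries 1 to 4. The coefficient of variation of Nusap1 was 1.17% among MaxKO libraries and 10.2% among Ctrl libraries, and the groups did not overlap. The log2 fold change of Nusap1 was 0.21 (SE 0.08, edgeR adjusted p = 0.0838). Tpx2, which activates Aurora A on the spindle, had 473, 478, 489 and 570.4 CPM in MaxKO libraries 1 to 4, against 533, 530.3, 456 and 429.7 CPM in Ctrl libraries 1 to 4, and its log2 fold change was 0.04 (SE 0.10, edgeR adjusted p = 0.793). Its groups overlapped, with MaxKO 4 the highest library. Prc1, which bundles midzone microtubules, had 0.02, Anln, which organises the contractile ring, had -0.04, and Ect2, which activates RhoA there, had 0.03.

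Of the 6 genes of chromosome structure, Smc4 fell, and the median log2 fold change was -0.03. The genes of 2 other condensin subunits, Ncapg and Ncapd2, had log2 fold changes of 0.03 (SE 0.09, edgeR adjusted p = 0.872) and 0.04 (SE 0.08, edgeR adjusted p = 0.745). Ncapd2 had 478, 486, 475 and 574 CPM in MaxKO libraries 1 to 4, against 505, 490.4, 484 and 472 CPM in Ctrl libraries 1 to 4, with MaxKO 4 above the other 7. Top2a, the gene of topoisomerase II alpha and the most abundant of the 45 in CPM, had 1658, 1688, 1720.0 and 1668 CPM in MaxKO libraries 1 to 4, against 1936, 1728, 1592 and 1676 CPM in Ctrl libraries 1 to 4. The groups overlapped, and the 95% interval of its log2 fold change was -0.23 to 0.14. Mki67, the gene of the proliferation marker Ki-67, had 944, 975, 976 and 1085 CPM in MaxKO libraries 1 to 4, against 1027, 959, 1032 and 1039 CPM in Ctrl libraries 1 to 4, and its 95% interval was -0.20 to 0.14.

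Of the 4 genes of anaphase onset, Espl1 rose, and the median log2 fold change was 0.23. Ube2c, the gene of the E2 enzyme of the anaphase-promoting complex, had 435, 408, 414 and 545 CPM in MaxKO libraries 1 to 4, against 428, 410.3, 374 and 323 CPM in Ctrl libraries 1 to 4. The groups overlapped, with MaxKO 4 well above the other 7 libraries, and the log2 fold change was 0.23 (SE 0.12, edgeR adjusted p = 0.177). Pttg1, which encodes securin, the inhibitor of separase, had 144, 127, 152 and 155 CPM in MaxKO libraries 1 to 4, against 146, 138, 107 and 98.5 CPM in Ctrl libraries 1 to 4. Ctrl 1 and 2 lay inside the MaxKO range and Ctrl 3 and 4 below it, and the log2 fold change was 0.24 (SE 0.12, edgeR adjusted p = 0.190). Cdc20, the activator of the anaphase-promoting complex, had 345, 324, 327 and 444 CPM in MaxKO libraries 1 to 4, against 432, 419, 307 and 264 CPM in Ctrl libraries 1 to 4. The controls spanned nearly the whole range, and the log2 fold change was 0.02 (SE 0.16, edgeR adjusted p = 0.947).

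**Figure D3:**
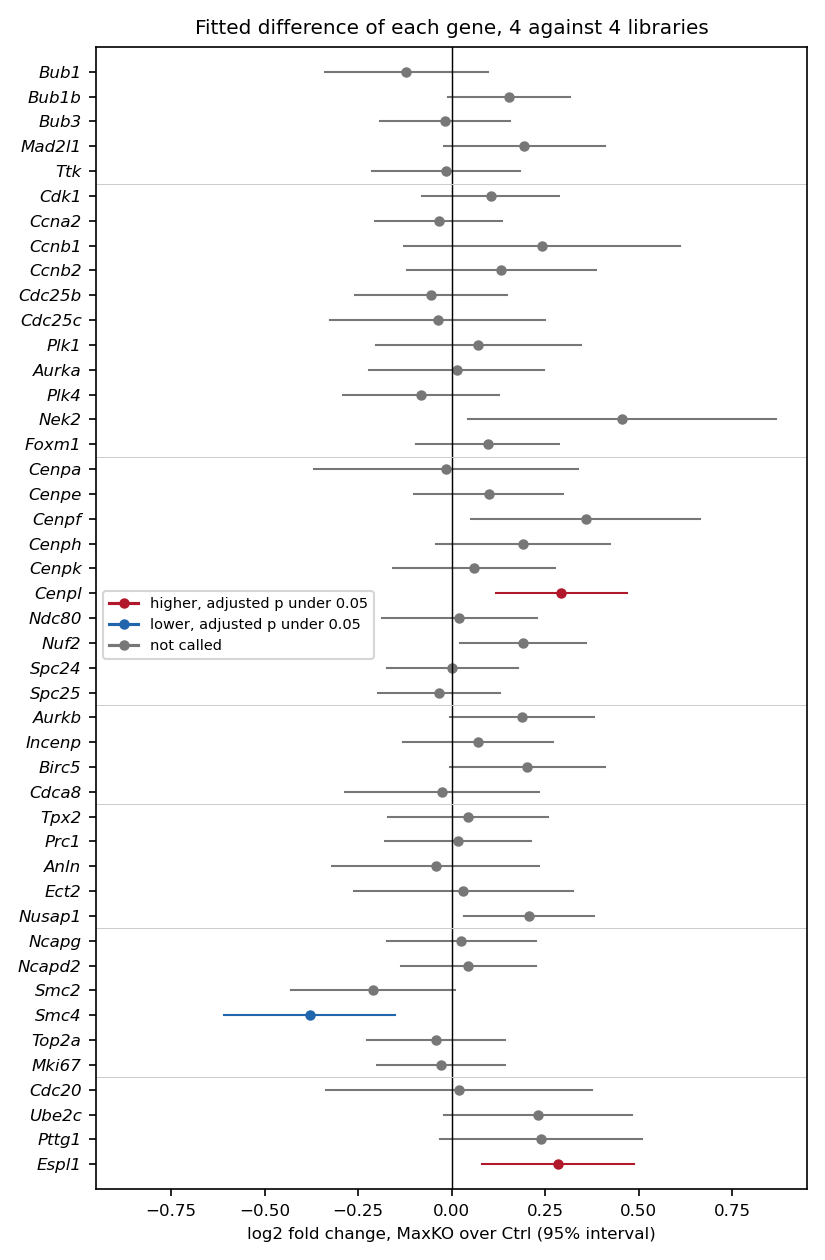
Log2 fold change of MaxKO over Ctrl (horizontal axis) with its 95% interval for each of the 45 genes, ordered by role, from 4 MaxKO and 4 Ctrl libraries. Cenpl (0.29) and Espl1 (0.28) are higher, Smc4 (-0.38) is lower, and the intervals of Nek2 and Ccnb1 are among the widest.

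These genes varied together among libraries of 1 group. Their summed CPM was 11617, 11431, 11700 and 12802 in MaxKO libraries 1 to 4, against 12966, 12121, 10613 and 10702 in Ctrl libraries 1 to 4, so that the controls held both the highest and the lowest sum. Ctrl 1 and 2 were both above Ctrl 3 and 4 for 34 of the 45 genes (75.6%), beside 27.5% of all tested genes. They were both below for Foxm1, Cenph and Mki67, beside 27.6% of all tested genes. The median log2 ratio of Ctrl 1 and 2 over Ctrl 3 and 4 was 0.26 over the 45 genes, beside -0.01 over all genes. The ratio was 1.68 for Nek2, 1.58 for Cenpa, 1.57 for Ccnb1, 1.49 for Cdc20, 1.45 for Cenpf and 1.43 for Ect2. Their median coefficient of variation was 7.93% among MaxKO libraries and 12.1% among Ctrl libraries, and the SD was larger among controls for 32 of the 45 genes, beside 75.2% of all genes.

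The 2 pairs of controls also differed in measures outside these genes. The share of reads outside exons was 21.5%, 20.5%, 20.9% and 21.1% in MaxKO libraries 1 to 4, against 18.5%, 18.6%, 23.3% and 23.4% in Ctrl libraries 1 to 4. The neuroendocrine peptide gene Calca had 517, 550, 581 and 519 CPM in MaxKO libraries 1 to 4, against 1990, 1800, 397 and 483 CPM in Ctrl libraries 1 to 4. It was the neuroendocrine marker with the largest gap between the pairs, and it was singled out after its values were seen. Ncam1 went the other way, with 183, 177, 173 and 163 CPM in MaxKO libraries 1 to 4, against 169, 195, 299 and 242 CPM in Ctrl libraries 1 to 4. Uchl1 was also lower in Ctrl 1 and 2, with 819, 680, 713 and 744 CPM in MaxKO libraries 1 to 4, against 465, 516, 745 and 553 CPM in Ctrl libraries 1 to 4. Chga, at 456 to 471 CPM in Ctrl, and Chgb, at 243 to 258 CPM, did not separate the pairs. The summed fibroblast markers were 48.5 to 64.9 CPM in MaxKO and 24.7 to 45.2 CPM in Ctrl. Dcn, which was called higher, made up most of each sum, at 48.3 to 64.2 CPM in MaxKO and 21.3 to 42.9 CPM in Ctrl. Pdgfra was called lower, at 0.0513 to 0.334 CPM in MaxKO and 0.811 to 2.26 CPM in Ctrl. Thy1 and Col1a1, too low to be tested, were also lower in MaxKO, at up to 0.0669 and 0.19 CPM. In Ctrl they reached 0.802 and 0.404 CPM. Col1a2 overlapped between the groups, at up to 0.201 CPM, and Lum was at 0. The part of these differences in the values of the mitosis genes was not tested. The labels give no batch for the libraries.

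**Figure D4:**
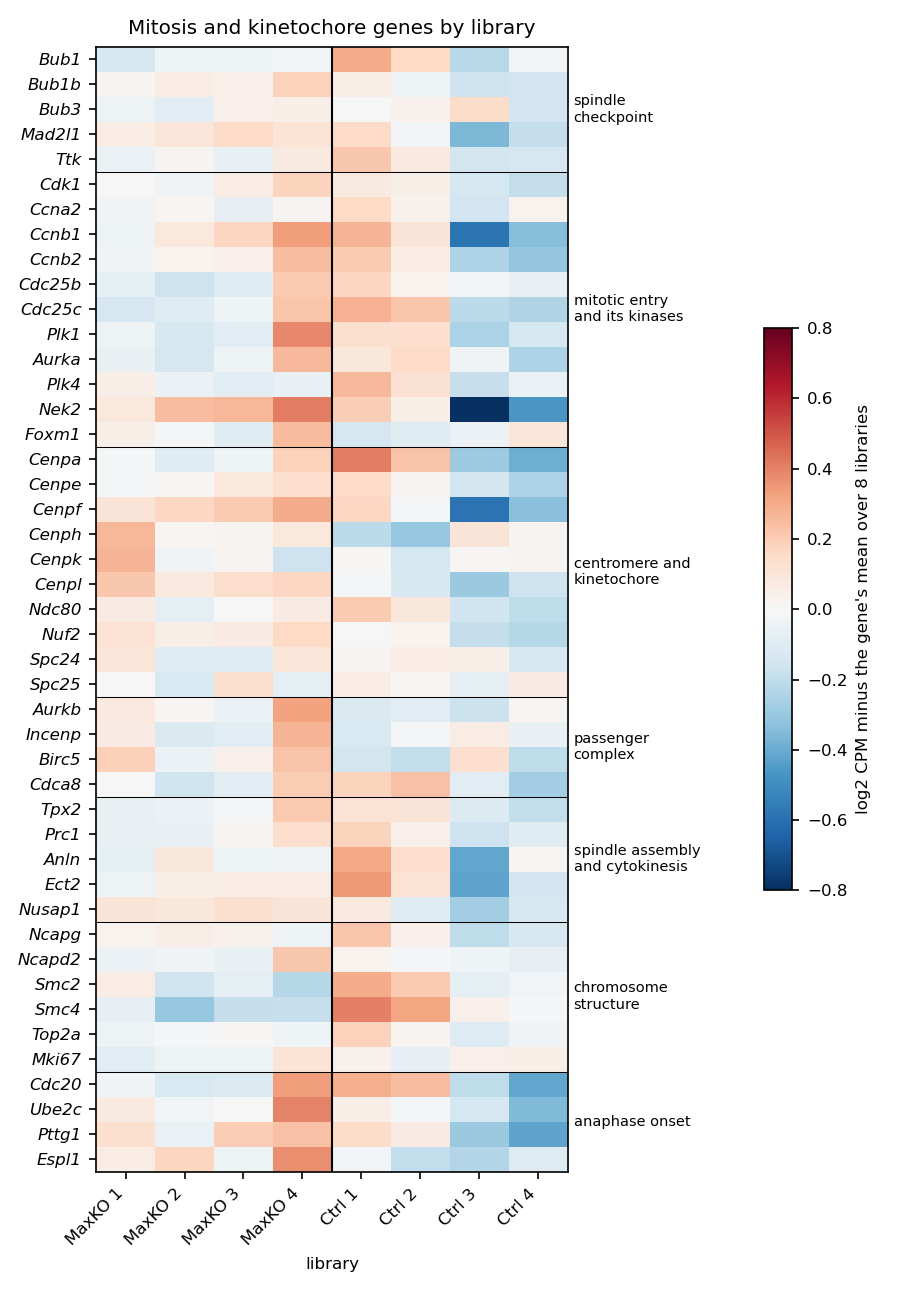
Level of each of the 45 genes in each library as log2 CPM minus the gene's mean over the 8 libraries (colour), with genes in rows by role and MaxKO libraries left of Ctrl libraries. Ctrl 1 and 2 are mostly above Ctrl 3 and 4, which holds in full for 34 of 45 genes, and MaxKO 4 is the highest MaxKO library for 33.

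With 2 unlike pairs of controls, the 4 MaxKO libraries were also set against each pair alone, a comparison chosen with earlier results of these data known, whose 2 fits share the MaxKO libraries. The pairs follow a difference seen in these same genes, so a gene whose MaxKO libraries lie between the pairs must change sign, and each fit leaves out the spread between the pairs. The counts and values against each pair are therefore a description and give no independent evidence. Against Ctrl 1 and 2, 12 of the 45 genes were called (26.7%), beside 44.6% of all genes in that fit. Birc5, Cenph, Cenpl and Espl1 were higher, and Anln, Bub1, Cdc25c, Cenpa, Ect2, Plk4, Smc2 and Smc4 were lower, beside 22.0% of all genes higher and 22.6% lower. Against Ctrl 3 and 4, 11 were called (24.4%), beside 20.7% of all genes. All 11, which were Ccnb1, Ccnb2, Cenpa, Cenpf, Cenpl, Ect2, Mad2l1, Nek2, Nuf2, Nusap1 and Pttg1, were higher, beside 9.39% of all genes higher and 11.3% lower. By edgeR 0 of the 45 were lower there, and 0 at an unadjusted p under 0.05. The median log2 fold change of the 45 was -0.05 against Ctrl 1 and 2 and 0.17 against Ctrl 3 and 4.

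Cenpl was higher against either pair, at log2 fold changes of 0.21 against Ctrl 1 and 2 and 0.37 against Ctrl 3 and 4. Smc4 was lower against Ctrl 1 and 2, at -0.54, and not called against Ctrl 3 and 4, at -0.20. Cenpa was at -0.31 against Ctrl 1 and 2 and 0.35 against Ctrl 3 and 4, with SEs of 0.08 and 0.09 in these fits, beside 0.16 with all 4 controls. Ect2 was at -0.21 against Ctrl 1 and 2 and 0.31 against Ctrl 3 and 4. Ect2 had 179, 190.0, 192 and 192 CPM in MaxKO libraries 1 to 4, against 234, 199.6, 137 and 165 CPM in Ctrl libraries 1 to 4. Nek2 reached 0.87 against Ctrl 3 and 4, Cenpf 0.64 and Ccnb1 0.60, and none of these 3 was called against Ctrl 1 and 2. For Ttk, Cenpa, Ndc80 and Ect2 all 4 MaxKO libraries lay between the 2 pairs, which is 8.89% of the 45 genes beside 1.59% of all genes.

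**Figure D5:**
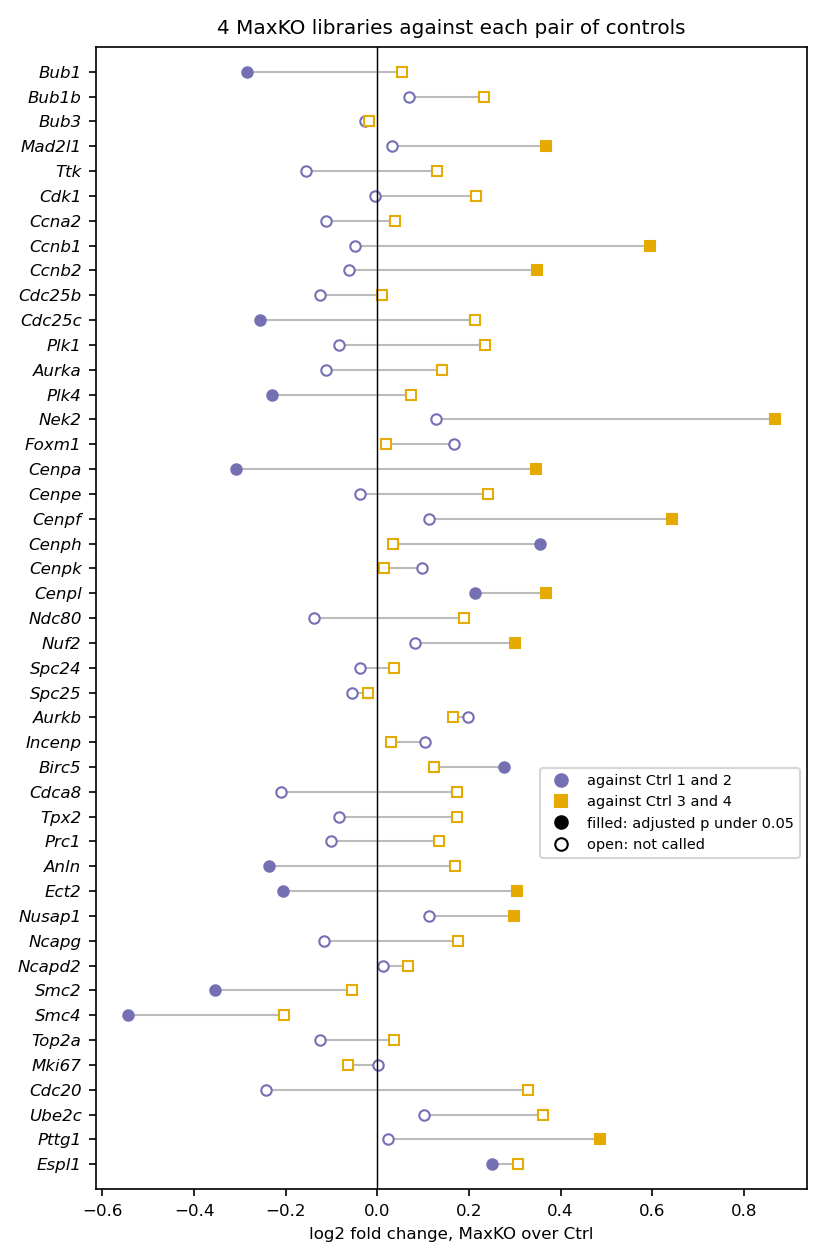
Log2 fold change (horizontal axis) of the 4 MaxKO libraries over Ctrl 1 and 2 (circles) and over Ctrl 3 and 4 (squares) for each of the 45 genes, filled where the adjusted p was under 0.05. Most squares lie to the right of their circles, and those of Cenpa and Ect2 lie on either side of 0. The pairs were set by a difference seen in these genes, so the filled points are a description.

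Among the MaxKO libraries, library 4 also stood apart. MaxKO 4 was the highest of the MaxKO libraries for 33 of the 45 genes (73.3%), beside 32.3% of all genes, and the highest of all 8 for 22 (48.9%), beside 12.5%. Against the mean of MaxKO 1 to 3, it was 1.39 times as high for Plk1, which had 128, 120.2, 124 and 172 CPM in MaxKO libraries 1 to 4, against 143, 144, 110.3 and 119 CPM in Ctrl libraries 1 to 4. The ratio was 1.34 for Cdc20 and 1.30 for Ube2c. MaxKO 4 was also the MaxKO library with the most Max transcript, and the part of this in the mitosis genes was not tested. Without MaxKO 4, edgeR called 0 of the 45 genes, beside 19% of all genes, and 4 of the 45 had an unadjusted p under 0.05. Without Ctrl 2 it also called 0 of the 45, beside 17.5% of all genes, with 7 at an unadjusted p under 0.05. With all 8 libraries 7 of the 45 were at that level, beside 4739 of the 13358 tested genes. Without Ctrl 1 edgeR called 6, beside 19.7% of all genes. All 6 were higher, beside 8.8% of all genes: Cenpf, Cenpl, Espl1, Mad2l1, Nek2 and Nusap1.

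A further list of 98 genes of mitosis, among them other kinetochore, cohesin and anaphase-promoting complex subunits, was read beside the 45. Of these, 94 were in the files and tested, 4 rose and 3 fell (7.45%, beside 23.1% of all genes), and the median log2 fold change was 0.02. Stag1, a cohesin subunit gene, had 74.8, 85.5, 77.3 and 74.5 CPM in MaxKO libraries 1 to 4, against 117, 108, 114 and 115 CPM in Ctrl libraries 1 to 4, and fell by 0.54 on the log2 scale (edgeR adjusted p = 0.000303). Anapc13, a subunit gene of the anaphase-promoting complex, had 39.6, 34.3, 37.8 and 37.1 CPM in MaxKO libraries 1 to 4, against 56.0, 55.1, 57.7 and 47.2 CPM in Ctrl libraries 1 to 4, and fell by 0.54 on the log2 scale (edgeR adjusted p = 0.000995). In both genes the groups lay apart, and Ctrl 1 and 2 did not stand apart from Ctrl 3 and 4.

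Lin9, a subunit gene of the MuvB complex, had 99.4, 109, 102 and 98.7 CPM in MaxKO libraries 1 to 4, against 84.1, 78.7, 55.2 and 71.2 CPM in Ctrl libraries 1 to 4, a log2 fold change of 0.50 (edgeR adjusted p = 0.00778). Nsl1, a subunit gene of the MIS12 complex of the kinetochore, had 84.8, 84.7, 79.8 and 89.1 CPM in MaxKO libraries 1 to 4, against 64.9, 71.6, 60.7 and 66.0 CPM in Ctrl libraries 1 to 4, a log2 fold change of 0.36 (edgeR adjusted p = 0.00448). Kntc1, which helps load the checkpoint proteins, rose by 0.31 (edgeR adjusted p = 0.0160), Ccnf, the gene of cyclin F, rose by 0.41 (edgeR adjusted p = 0.0207), and Fbxo5, which encodes the inhibitor EMI1 of the anaphase-promoting complex, fell by 0.25 (edgeR adjusted p = 0.0423). Stag1, Anapc13, Nsl1 and Lin9 passed in all 8 fits with a library left out, while the call was lost for Kntc1 in 3, for Ccnf in 4 and for Fbxo5 in 5.

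Counts of some of the 45 genes are uncertain because other genes share their sequence. In the GENCODE M21 annotation of GRCm38, 15 of the 45 share exonic bases with another gene, 5 of them over at least 10% of their exonic length: Ube2c with Tnnc2, Ncapg with Lcorl, Cdc25c with Gm3550, Ccna2 with Exosc9 and Prc1 with Rccd1. Whether the counting used strand is not given in the sources used here, so reads in such stretches could not be assigned. Ccnb1 and Ccnb2 also have annotated pseudogenes that could take or lend reads. Pseudogenes were sought only by names made of the gene symbol with the ending -ps or -rs, so copies under other names would be missed. None of the exonic overlaps touches Cenpl, Espl1 or Smc4.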

How the data were processed

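The data were 8 libraries of mouse preSC cells, 4 MaxKO and 4 Ctrl. TRIZOL extraction and an NEB Ultra RNA kit fed with 500 ng are named per the labels' protocols. The deposited values are raw read counts for each gene symbol, which the authors made with bcl2fastq 1.8.4, TopHat2 2.0.12, the mm9 genome and HTSeq 0.6.1 (tools and build per the submitters' processing notes). Neither the annotation nor the strand setting is given in the sources used here. By default HTSeq skips reads that align to several places, which lowers genes with near-identical copies. Rows that name no gene held 29.7% to 31.3% of the counts in MaxKO and 27.0% to 33.1% in Ctrl and were left out.

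Of 23284 genes, 19124 had a count and 13358 passed filterByExpr. CPM values use TMM factors, except those of the cell type markers (Calca, Ncam1, Uchl1, Chga and Chgb, and the sums), which use plain totals. Tests used edgeR 4.0.16 in R 4.3.3, namely its robust quasi-likelihood F test with group alone in the model. P-values were adjusted by Benjamini-Hochberg across the tested genes, with 0.05 as the threshold, and SEs were computed as the log2 fold change over the root of F. No set test was run.

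The 45 genes, the further list and the tests were chosen with earlier results of these data known. Called genes and the 2 uncalled genes with the smallest p in each role were given library by library. Cdc20, Cenpa, Ect2, Mki67, Plk1 and Top2a were added after their values were seen. Promoters came from RefSeq (GRCm38.p6), which is another build than mm9, and were matched by symbol.

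The 20 alternatives changed 1 choice each: the scaling (RLE, upper-quartile, plain totals), the filter (none, or 1 CPM reached by 4 libraries), the tool (DESeq2 1.42.0, limma-voom of limma 3.58.1, edgeR without robust estimation), an added term (replicate number, share of reads outside exons), the controls (1 and 2 only, 3 and 4 only), and each of the 8 libraries left out.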

Additional observations from a re-analysis of the deposited data

Results flagged for a closer look

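In 8 of the 92 groups of 4 libraries examined (45 genes and Max in each group), the highest or lowest library lay far from the other 3, with a gap to the next library that exceeded the 95% critical value of Dixon's ratio. Chance alone flags about 1 group in 20. The ratio sets the gap against the range of the 4 libraries, so a small gap is flagged where the other 3 lie close together. In MaxKO, library 4 was above the other 3 for Plk1, at 171 CPM beside 120 to 128 CPM. So it was for Tpx2 (570 CPM beside 473 to 489 CPM) and Ncapd2 (574 CPM beside 475 to 486 CPM). Also in MaxKO, library 1 was below the other 3 for Bub1 (97.4 CPM beside 104 to 105 CPM) and Ect2 (179 CPM beside 190 to 192 CPM). Among the controls, library 2 was low for Cenpk (29.8 CPM beside 33 to 33.3 CPM) and Mki67 (959 CPM beside 1030 to 1040 CPM). Control library 3 was high for Birc5 (204 CPM beside 162 to 168 CPM).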

How the results depend on the processing

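Of 900 log2 fold changes of single genes recomputed under the 20 alternatives, 763 kept their direction and their side of the threshold. Another 31 passed it anew, 22 lost it, and 84 changed sign. Only Ect2 with controls 1 and 2 alone and Cenpa with controls 3 and 4 alone changed sign and also passed it, in fits whose control pairs were set by a difference in these same genes. The cause of these changes was not tested, and fits with fewer libraries also hold less information.

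All called genes numbered 3084, and 2102 to 3743 with a library left out, which is 15.5% to 27.8% of tested genes. They numbered 2532 with the replicate block and 6068 with controls 1 and 2 only. With reads outside exons as a term they numbered 4423, or 33.1% of tested genes. Upper-quartile scaling split the calls into 1160 higher and 1965 lower, beside 1457 and 1627. The 2 higher among the 45 became 1 under upper-quartile scaling, 1 with plain totals, 1 under the CPM filter, 1 by limma-voom, 4 by DESeq2, 9 with reads outside exons as a term, 4 with controls 1 and 2 only, 11 with controls 3 and 4 only, and 0 to 6 with a library left out. The shares of all genes called higher were 8.68% under upper-quartile scaling, 8.8% with plain totals, 10.6% under the CPM filter and 9.04% with the replicate block. They were 16.9% with reads outside exons as a term, 11.4% by limma-voom and 12.5% by DESeq2. With controls 1 and 2 only 22.0% were higher, with controls 3 and 4 only 9.39%, and with a library left out 7.12% to 13.7%. The 9 with reads outside exons as a term were Ccnb1, Cenpf, Cenpl, Espl1, Mad2l1, Nek2, Nuf2, Nusap1 and Pttg1. The 1 lower became 8 with controls 1 and 2 only, 0 with controls 3 and 4 only, and 0 to 1 with a library left out. Of all genes, 22.6% were lower with controls 1 and 2 only and 11.3% with controls 3 and 4 only. With a library left out, 8.42% to 14.3% were. The median of the 45 was -0.0020 under upper-quartile scaling, 0.01 with plain totals, -0.020 to 0.095 with a library left out, -0.05 with controls 1 and 2 only and 0.17 with controls 3 and 4 only.

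Of the further 94 genes, the 4 higher became 2 to 6 with a library left out, 8 with reads outside exons as a term and 15 with controls 1 and 2 only. Of all genes, 7.12% to 13.7%, 16.9% and 22.0% were higher in these fits. The 3 lower became 2 to 8 with a library left out and 6 under upper-quartile scaling. They became 6 with reads outside exons as a term and 20 with controls 1 and 2 only. Of all genes, 8.42% to 14.3%, 14.7%, 16.2% and 22.6% were lower in these fits, in the same order. The median of the 94 genes was 0.0030 to 0.035 with a library left out, -0.025 under upper-quartile scaling and -0.018 with controls 1 and 2 only. Max was at -0.52 to -0.27 with a library left out.

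The deviations of MaxKO and Ctrl libraries from their group means had correlations of -0.20 to 0.00198 where the replicate number was the same. Where it was not, they were -0.221 to 0.199. With 4 libraries in each group, this cannot show whether the numbers mark a shared culture or day. With the replicate block 1 of the 45 was higher, the adjusted p of Espl1 was 0.0548, and Cenpa was at 0.019. Espl1 also lost its call under upper-quartile scaling (adjusted p = 0.0865), with plain totals (0.0818), under the CPM filter (0.051), by limma-voom (0.0515) and with controls 3 and 4 only (0.0674).

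Apart from Ect2 and Cenpa as named above, the genes that changed sign were called neither in the reported fit nor in the alternative. With controls 1 and 2 only, Cdk1 was at -0.0059, Ccnb1 -0.048, Ccnb2 -0.062, Plk1 -0.083, Aurka -0.11, Cenpe -0.038, Ndc80 -0.14, Spc24 -0.038, Tpx2 -0.084, Prc1 -0.10, Ect2 -0.21, Ncapg -0.12, Mki67 0.00072 and Cdc20 -0.24. With controls 3 and 4 only, Bub1 was at 0.054, Ttk 0.13, Ccna2 0.038, Cdc25b 0.011, Cdc25c 0.21, Plk4 0.073, Cenpa 0.35, Cdca8 0.175, Anln 0.17 and Top2a 0.036. Under upper-quartile scaling, Aurka was at -0.032, Ndc80 -0.025, Spc24 -0.044, Tpx2 -0.0020, Prc1 -0.029, Ect2 -0.014, Ncapg -0.020, Ncapd2 -0.0015 and Cdc20 -0.025. With plain totals, Aurka was at -0.019, Ndc80 -0.012, Spc24 -0.031, Prc1 -0.016, Ect2 -0.0022, Ncapg -0.0070 and Cdc20 -0.012. Spc24 was at -0.0086 under the CPM filter, and Cenpa at 0.022 by limma-voom and 0.036 with reads outside exons as a term.

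With a library left out, the lowest and highest values were -0.038 and 0.12 for Cenpk, -0.039 and 0.095 for Ndc80, -0.038 and 0.036 for Spc24, -0.068 and 0.030 for Bub3, -0.13 and 0.13 for Cenpa, -0.090 and 0.0023 for Spc25, -0.11 and 0.041 for Cdca8, -0.066 and 0.13 for Plk1, -0.084 and 0.062 for Aurka, -0.021 and 0.12 for Incenp, and -0.029 and 0.083 for Tpx2. They were -0.033 and 0.077 for Prc1, -0.031 and 0.064 for Ncapd2, -0.10 and 0.12 for Cdc20, -0.063 and 0.053 for Ttk, -0.087 and 0.0081 for Ccna2, -0.13 and 0.050 for Cdc25c, -0.16 and 0.057 for Anln, -0.080 and 0.0094 for Top2a, -0.084 and 0.16 for Ect2, and -0.031 and 0.11 for Ncapg.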
